A study of Mus musculus with 6 samples.

Results

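The proteasome genes described here are the 41 mouse genes, of 18193 genes named on the array, whose symbol begins with Psma, Psmb, Psmc, Psmd or Psme followed by a digit, leaving out the immunoproteasome genes Psmb8, Psmb9 and Psmb10. They were represented by 87 of 45037 probe sets (groups of array oligonucleotides that report one transcript), and each gene was read from its brightest probe set. Of the 41 genes 38 were bright enough to be tested, and Psma8, Psmb11 and Psmd9 were not. Psmc3ip and Psme3ip1 meet the rule by name but encode a recombination cofactor and a partner of the activator subunit Psme3, so 36 of the tested genes encode subunits, activators or assembly chaperones. Psme2, the partner of Psme1, was reached only by a probe set that also carries the symbol Psme2b and was left out by the rule.

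Total RNA was taken from the gastrocnemius, the large calf muscle, of normal male mice of the strain written C57B1/6 in the labels, and hybridised to 6 Affymetrix mouse arrays. The young group held 3 arrays (replicates 1, 2 and 3) and the aged group 3 arrays (replicates 51, 52 and 53), with no treatment or allele named in either. Neither group has a stated age in the sources used, and no label says that the arrays came from separate mice. Each p-value therefore reflects the spread of these arrays alone, and that spread may be technical. In whole muscle, fewer cells of a type and less RNA per cell cannot be told apart.

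The proteasome is the large protease that degrades proteins tagged with ubiquitin. Its 20S core is a barrel of stacked rings, with outer rings of alpha subunits that gate the entrance and inner rings of beta subunits, of which Psmb5, Psmb6 and Psmb7 carry the active sites. The 19S regulatory particle caps the core: its base holds a ring of ATPases that unfold substrates, and its lid removes the ubiquitin chain. In skeletal muscle this system carries out much of the breakdown of contractile proteins during wasting.

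No proteasome gene passed the test between aged and young muscle. Of the 38 tested genes 0 passed limma's adjusted p of 0.05, where 1.05% of all 22519 tested probe sets passed, and 2 (5.26%) had an unadjusted p under 0.05, Psma3 and Psmd5, where 10% of all did. Both directions had 0 calls among the proteasome genes, against 0.311% of all tested probe sets higher and 0.742% lower in aged muscle. With eBayes run without its brightness trend 0 genes passed, where only 0.0933% of all tested probe sets did. In that setting 1 gene had an unadjusted p under 0.05, and the share of all with such a p was not counted. The lowest adjusted p was 0.372, for Psma3. Changes are given throughout as aged minus young on the log2 scale with limma's standard error (n = 3 arrays per group). They were negative for 27 genes (71.1%) and positive for 11. Of all tested probe sets 49.5% were negative, and of the brightest 20% of these 59.5%. The median of the proteasome genes was -0.21, against 0.0079 over all tested probe sets and -0.11 over the brightest 20%. The aged arrays lay wholly on one side of the young arrays for 4 of 38 genes (10.5%), where 16.2% of all tested probe sets and 27.3% of the brightest 20% did so. These were Psma3 and Psmd5, lower in aged muscle as 8.74% of all probe sets were, and Psmb3 and Psmc2, higher as 7.41% of all were. The 95% interval of the change lay within 1 log2 unit of 0, a 2-fold difference in either direction, for 19 of the 38 genes. For the other 19 it reached past that bound.

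The aged arrays did not behave alike. Aged replicate 51 shared a fluidics station with all young arrays, and aged replicates 52 and 53 were washed on another under another protocol name. The log2 ratio of 3 prime to 5 prime signal of the control transcripts, a measure of RNA quality in which a higher value means less of the 5 prime end, was 1.71, 1.77 and 1.75 in young and 2.11, 2.00 and 2.86 in aged replicates, higher in all 3 aged arrays (exact two-sided permutation p = 0.1, the smallest that 3 against 3 allows). With this ratio as a covariate 0 of the 38 genes passed, where 0.613% of all tested probe sets did. The median change of the 38 genes was then -0.52, and 12 had an unadjusted limma p under 0.05. The share of all probe sets with such a p in this setting was not counted. The ratios of the groups do not overlap, so this adjusted change is an extrapolation. Aged replicate 51 lay below the young mean for 28 of the 38 genes (73.7%, median difference from that mean -0.34), replicate 52 for 21 (55.3%, -0.09) and replicate 53 for 9 (23.7%, 0.16). Over all tested probe sets the 3 shares lay between 45.8% and 46.8%, and over the brightest 20% they were 66.6%, 61.7% and 42.3%. Without replicate 51 the proteasome median was -0.0095, with 19 genes negative and 19 positive.

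**Figure D1:**
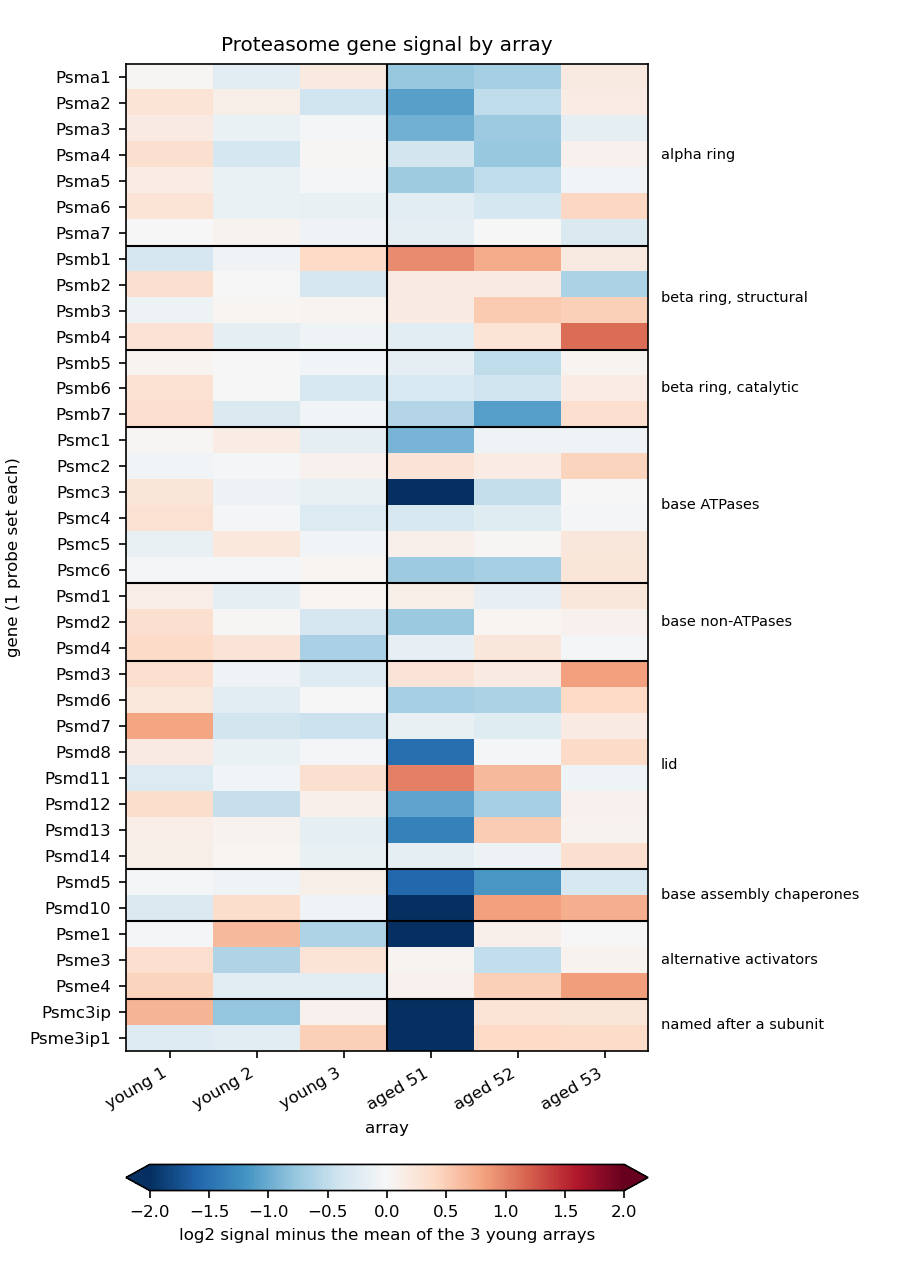
Colour shows the log2 signal of each tested proteasome gene (rows, ordered by subcomplex) on each array (columns), minus the gene's mean over the 3 young arrays and limited to 2 log2 units in either direction. Aged replicate 51 is the lowest array for 20 of 38 genes (52.6%), young replicate 1 the highest for 16 (42.1%) and aged replicate 53 the highest for 11 (28.9%). Over the brightest 20% of tested probe sets these shares were 34.9%, 25% and 29.4%.

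With the station as a covariate, which sets aged replicate 51 alone against the young arrays, 3 proteasome genes passed, as did 1.31% of all probe sets. They were the base ATPase Psmc3 (-2.09, limma adjusted p = 0.0203), the assembly chaperone Psmd10 (-3.76, adjusted p = 0.0457) and the activator subunit Psme1 (-4.47, adjusted p = 0.0264). In the 4 arrays of the first station alone Psmc3 passed (adjusted p = 0.0172), with 1.62% of all probe sets. Both settings take the spread of aged muscle from other arrays, and each of these changes is the position of 1 array.

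The alpha ring, whose subunits form the gate of the core, had negative changes in 7 of 7 tested genes, with a median of -0.41, and 0 passed. Psma3 had signals of 74895, 60703 and 65553 in young replicates 1, 2 and 3 and 34442, 40333 and 58904 in aged replicates 51, 52 and 53. Every aged array lay below every young array, with replicate 53 close to the lowest young one. The change was -0.62 ± 0.23 (95% interval -1.13 to -0.11, limma adjusted p = 0.372). Without aged replicate 53 it was -0.84 with an adjusted p of 0.0514, the lowest that any array left out gave for a proteasome gene.

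Psma5 read 51175, 41999 and 45287 in young muscle and 28179, 32214 and 44453 in aged muscle. Replicates 51 and 52 were low and replicate 53 fell among the young arrays, and the change was -0.42 ± 0.22 (adjusted p = 0.56). Psma1 (-0.41 ± 0.33), Psma2 (-0.48 ± 0.31) and Psma4 (-0.35 ± 0.33) had changes of like size with wider errors. By their brightest probe sets Psma6 (-0.06 ± 0.25) and Psma7 (-0.16 ± 0.24) were nearer to 0. Psma7 was the most even gene of the ring, with signals between 5477 and 7030. Other tested probe sets of Psma6 were at -0.18 ± 0.33 and -0.79 ± 0.32. Those of Psma3, Psma5 and Psma7 were at -1.04 ± 0.67, -0.54 ± 0.25 and -0.31 ± 0.38. The mean of the ring, centred per gene, was 0.35, 0.07 and 0.12 on the young arrays and -0.43, -0.33 and 0.22 on the aged arrays, so the groups overlapped through replicate 53. Psma8, an alpha subunit of the testis form of the core, was dim, with signals of 372, 52.5 and 375 in young and 99.5, 221 and 40.2 in aged muscle.

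The beta subunits without an active site had changes of the other sign, and the difference between the rings was not tested. Of the 4 structural beta genes 3 had positive changes, with a median of 0.39, and 0 passed. Psmb3 had signals of 57450, 63163 and 63545 in young and 68473, 88354 and 85008 in aged muscle. All aged arrays were above all young arrays, and the change was 0.39 ± 0.20 (limma adjusted p = 0.555). Psmb1 read 3936, 4741 and 6547 in young and 9581, 8332 and 5646 in aged muscle. Replicates 51 and 52 were the high arrays here, and replicate 53 lay between young values (0.63 ± 0.30, adjusted p = 0.513). Psmb4 was at 0.39 ± 0.31 and Psmb2 at -0.10 ± 0.38, and both changed sign with the RNA quality ratio as a covariate (-0.33 and 0.48) and under the station settings (-0.23 and 0.17). Other tested probe sets of the same genes did not all share this sign: one of Psmb3 was at -0.61 ± 0.44, of Psmb4 at -0.58 ± 0.26 and of Psmb1 at -0.27 ± 0.33, with another Psmb1 set at 0.25 ± 0.49. With the tested probe sets of each gene averaged the median of the 4 genes was -0.10, and without probe sets ending in _x_at, _s_at or _a_at it was -0.34.

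**Figure D2:**
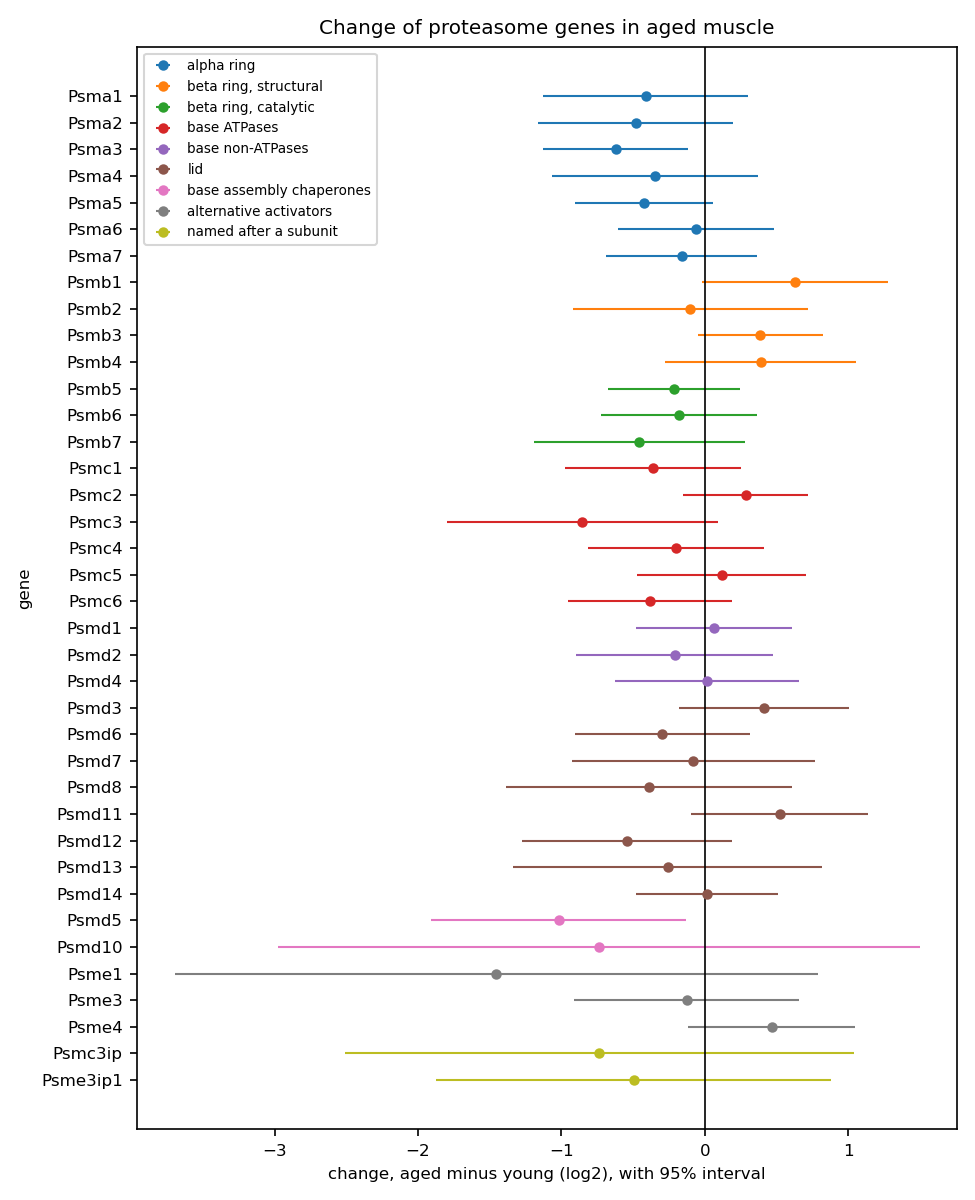
Points give the change of each tested proteasome gene, aged minus young on the log2 scale (horizontal axis), with bars for limma's 95% interval, n = 3 arrays per group, coloured by subcomplex. All 7 alpha ring genes lie left of 0 and 3 of 4 structural beta genes right of it, and the interval leaves out 0 only for Psma3 and Psmd5.

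The catalytic beta genes Psmb5, Psmb6 and Psmb7, whose products cleave after hydrophobic, acidic and basic residues, had negative changes in 3 of 3, with a median of -0.21, and 0 passed. Psmb5 had signals of 27667, 26647 and 25835 in young and 23443, 18853 and 27648 in aged muscle. The young arrays were tightly grouped, replicates 51 and 52 lay below them and replicate 53 lay at their top. The change was -0.21 ± 0.21 (95% interval -0.67 to 0.25, limma adjusted p = 0.768).

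Psmb6 read 15689, 12851 and 10217 in young and 10348, 9652 and 14177 in aged muscle, and the groups overlapped widely (-0.18 ± 0.25, adjusted p = 0.837). Psmb7 read 15752, 10229 and 12003 in young and 8276, 5780 and 15686 in aged muscle. Replicates 51 and 52 were again below all young arrays and replicate 53 near the highest (-0.46 ± 0.34, adjusted p = 0.682). Psmb11, the catalytic subunit of the thymus proteasome, was dim and uneven, with signals of 90.3, 299 and 323 in young and 838, 1694 and 106 in aged muscle.

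Many proteasome genes are known to be activated together by Nfe2l1 and Nfe2l2, transcription factors that bind antioxidant response elements. A core of this element, TGACNNNGC on either strand, was searched in the RefSeq promoters (GRCm38.p6, 250 bases before to 50 after the start), which were found for 34 of the 41 genes. It was present in 6 of the 34 (17.6%), namely Psmb5, Psmb6, Psmc6, Psmd12, Psme4 and Psmd9, against 14% of 27025 genes and 14.8% of the 17491 protein-coding ones. The 250 bases before the start of the catalytic genes Psmb5 (chr14:54617996-54618245, minus strand) and Psmb6 (chr11:70525107-70525356, plus strand) are shown because both hold 1 match; capitals mark it, at base 204 and base 242.
Psmb5: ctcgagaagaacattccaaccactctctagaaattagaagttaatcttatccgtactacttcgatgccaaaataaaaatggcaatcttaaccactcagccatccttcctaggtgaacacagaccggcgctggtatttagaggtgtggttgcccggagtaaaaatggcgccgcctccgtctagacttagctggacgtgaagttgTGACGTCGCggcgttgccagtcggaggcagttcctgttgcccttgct
Psmb6: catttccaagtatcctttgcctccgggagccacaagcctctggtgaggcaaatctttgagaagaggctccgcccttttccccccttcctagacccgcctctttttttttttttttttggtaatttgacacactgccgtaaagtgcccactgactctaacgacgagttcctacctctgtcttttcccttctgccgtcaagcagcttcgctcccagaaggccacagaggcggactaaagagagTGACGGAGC
The 5 tested genes with a match had a median change of -0.21 and the 27 without had -0.26. The CCAAT box (CCAAT, either strand) was present in 15 of 34 (44.1%) against 41.1% of all genes, and the GC box (GGGCGG, either strand) in 21 (61.8%) against 38.2% of all and 49.2% of protein-coding genes. The median change was -0.26 with and -0.24 without a CCAAT box, and -0.32 with and -0.17 without a GC box. A match describes the letters of the promoter and not binding.

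The base ATPases, the ring that unfolds and threads substrates, had 4 of 6 negative changes with a median of -0.28, and 0 passed. Psmc3 had signals of 12026, 9476 and 9173 in young and 2376, 7316 and 10157 in aged muscle. One array, replicate 51, was far below the rest, and replicate 53 lay within the young range (-0.86 ± 0.43, limma adjusted p = 0.542). Without replicate 51 the change was -0.24. Psmc6 read 26663, 26742 and 28034 in young and 16383, 17181 and 32111 in aged muscle. The young arrays were nearly equal, with a pair of aged arrays below and one above them (-0.38 ± 0.26, adjusted p = 0.662).

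Psmc2 was the ATPase gene whose groups did not overlap. It read 106244, 108054 and 116769 in young and 132053, 122103 and 150310 in aged muscle, all aged arrays being higher (0.28 ± 0.20, adjusted p = 0.669). Another probe set of the gene was at -0.11 ± 0.26 with overlapping groups. Psmc1 (-0.36 ± 0.28), Psmc4 (-0.20 ± 0.28) and Psmc5 (0.12 ± 0.27) overlapped between groups.

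The base subunits without ATPase activity, Psmd1 and Psmd2, which form the scaffold of the base, and the ubiquitin receptor Psmd4, had a median change of 0.015, and 0 of 3 passed. Psmd2 read 6476, 5305 and 4121 in young and 3109, 5352 and 5509 in aged muscle, with only replicate 51 below the young range (-0.21 ± 0.32, limma adjusted p = 0.848). Psmd1 read 6737, 5398 and 6289 in young and 6657, 5486 and 7153 in aged muscle, and the groups lay on top of each other (0.06 ± 0.25, adjusted p = 0.948). Psmd4 was at 0.01 ± 0.29.

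The lid genes had a median change of -0.17, with 5 of 8 negative, and 0 passed. Psmd11, a scaffold subunit of the lid, had signals of 62926, 72605 and 94755 in young and 152586, 118481 and 70936 in aged muscle. Replicates 51 and 52 were above all young arrays and replicate 53 among them (0.52 ± 0.28, limma adjusted p = 0.575). Its other tested probe sets lay between -0.28 and 0.53. Psmd12, another scaffold subunit, read 8927, 5102 and 7545 in young and 3389, 4432 and 7394 in aged muscle, with replicates 51 and 52 lowest (-0.54 ± 0.34, adjusted p = 0.619). Psmd14, the deubiquitinase of the lid, had signals between 10903 and 15467 and a change of 0.02 ± 0.23 (95% interval -0.48 to 0.51). Psmd3 was at 0.41 ± 0.27. Psmd6 (-0.30 ± 0.28), Psmd7 (-0.08 ± 0.39), Psmd8 (-0.39 ± 0.46) and Psmd13 (-0.26 ± 0.50) were within 1 standard error of 0 or slightly beyond it. Other tested probe sets were at -0.59 ± 0.32 for Psmd6 and 0.63 ± 1.23 for Psmd7. For Psmd13 they were at -0.99 ± 0.48 and -0.46 ± 0.85.

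The base assembly chaperones Psmd5, Psmd9 and Psmd10 hold ATPase subunits before the base is complete. Psmd5 had signals of 2889, 2811 and 3212 in young and 997, 1330 and 2366 in aged muscle. All aged arrays were below all young arrays, replicate 53 least so, and the change was -1.02 ± 0.41 (95% interval -1.91 to -0.13, limma adjusted p = 0.418). It ranged from -1.37 to -0.74 with each array left out in turn. Psmd10 read 1019, 1596 and 1186 in young and 91.9, 2204 and 2057 in aged muscle, so replicate 51 was far below and the other aged arrays above all young arrays. Its change was -0.74 ± 1.03, and 0.77 without replicate 51. Psmd9 was below the filter, with signals of 162, 147 and 565 in young and 613, 1234 and 1080 in aged muscle. Its groups did not overlap, and without the filter its change was 1.98 ± 1.00 (adjusted p = 0.662).

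The alternative activators open the core without the 19S particle. Psme1, a subunit of the interferon-induced PA28 ring, had signals of 1644, 2655 and 1106 in young and 76.3, 1814 and 1691 in aged muscle. Replicate 51 stood far below and the other aged arrays lay within the young range (-1.46 ± 1.03, limma adjusted p = 0.669, and 0.05 without replicate 51). The probe set shared by Psme2 and Psme2b read 2782, 2266 and 3291 in young and 2174, 2402 and 2518 in aged muscle (-0.22 ± 0.33, adjusted p = 0.85). Psme3, the nuclear PA28 subunit, read 4011, 2102 and 3838 in young and 3298, 2256 and 3347 in aged muscle, within the young range (-0.13 ± 0.36). Psme4, which encodes PA200, read 16445, 10434 and 10322 in young and 12907, 16856 and 21541 in aged muscle. A pair of aged arrays lay above all young arrays (0.47 ± 0.27, adjusted p = 0.591), and the gene's 3 other tested probe sets were at -0.05, -0.0011 and 0.0096.

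**Figure D3:**
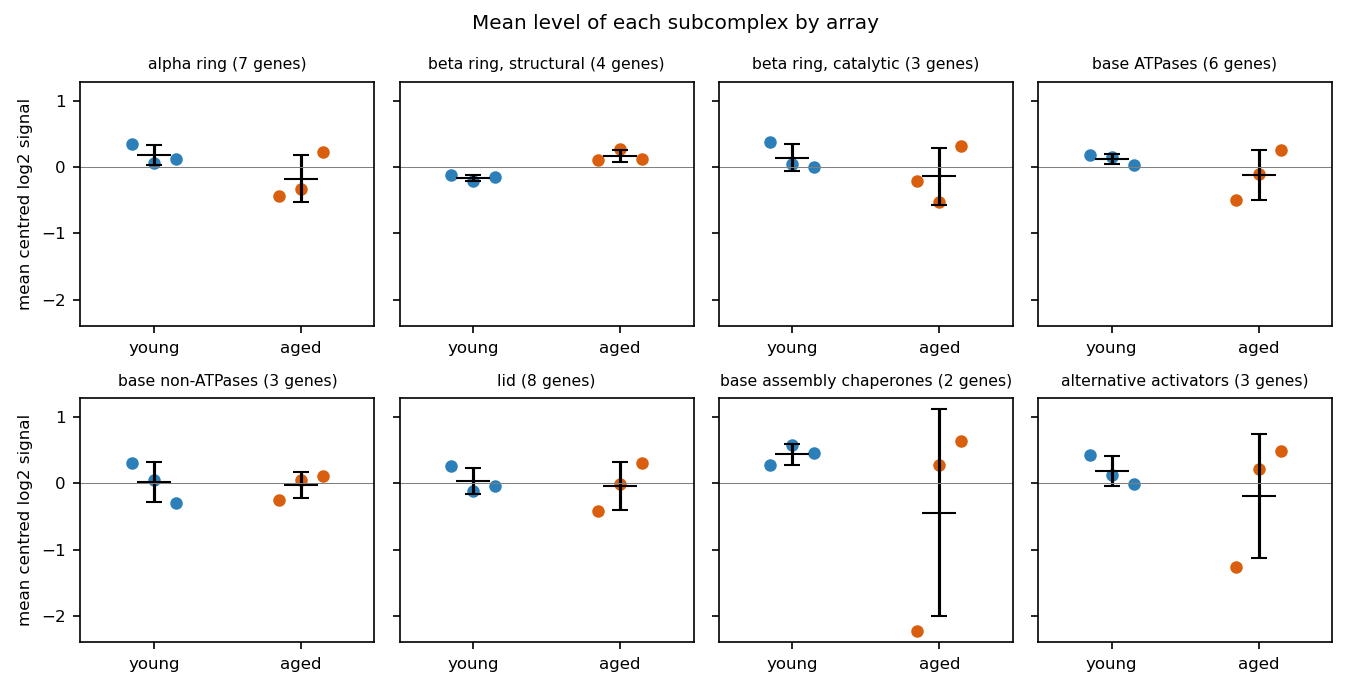
Points give, for each array, the mean over the tested genes of a subcomplex of the log2 signal centred on each gene's mean; horizontal lines are group means and bars the SD over 3 arrays. Only the structural beta genes separate the groups, and the chaperones (-2.23) and activators (-1.26) have 1 low aged point, replicate 51. Of all tested single probe sets 16.2% also separate the groups, and how often means over gene sets do so was not counted. The separation is for the brightest probe sets. The structural beta median, 0.39 here, was -0.10 with the tested probe sets of each gene averaged. It was -0.34 without sets ending _x_at, _s_at or _a_at, and positive under the other settings.

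The genes that match only by name were also lowest on replicate 51. Psmc3ip read 2074, 756 and 1376 in young and 195, 1569 and 1535 in aged muscle (-0.73 ± 0.82). Psme3ip1 read 1967, 2016 and 3258 in young and 490, 3089 and 3041 in aged muscle (-0.50 ± 0.63).

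Probe sets of the same gene did not always share a direction. Of the 38 tested genes 19 had several tested probe sets, which agreed in sign for 10 and not for 9, among them Psmb1, Psmb3, Psmb4, Psmc2, Psmd11 and Psme4. The share over all genes was not counted. Some of the disagreeing changes lay within 1 standard error of 0, as in Psmc2 (-0.11 ± 0.26) and Psme4 (-0.0011 ± 0.29). The change of the brightest probe set was above the mean of the others in 14 of the 19 genes (73.7%, median difference 0.33). Over all 4428 genes with several tested probe sets this was so in 49% (median difference -0.02). The chosen probe set ended in _x_at or _s_at, names given to sets that can bind several transcripts, for 6 genes.

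**Figure D4:**
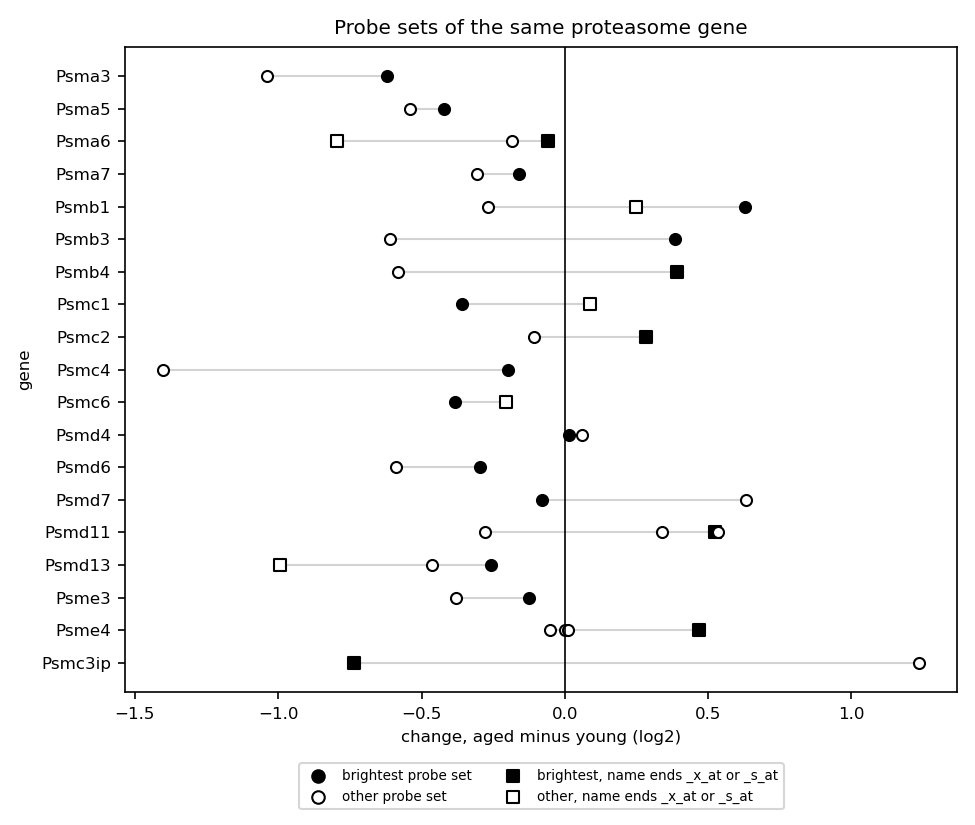
Each line joins the changes (aged minus young, log2) of all tested probe sets of a proteasome gene that had several, with filled symbols for the brightest set and squares for names ending _x_at or _s_at. Psmb1, Psmb3 and Psmb4 each have the filled symbol right of 0 and at least 1 open symbol left of it.

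Genes that build, serve or switch on the proteasome were read from 7 lists. Their 0 counts of calls go with an unadjusted p under 0.05 for Ublcp1, Uchl5 and the small Maf factor Mafk (-1.17 ± 0.54, limma adjusted p = 0.497) and for no other gene of the 6 lists without a call. One list held 5 tested genes, the core assembly factors Psmg1, Psmg2, Psmg3 and Pomp and the phosphatase Ublcp1. Of these 0 passed, and the median change with Ublcp1 included was -0.38. The core assembly factors themselves had changes in both directions. Ublcp1, the nuclear proteasome phosphatase, read 6122, 5237 and 4370 in young and 1869, 2461 and 4263 in aged muscle, with all aged arrays lower (-0.95 ± 0.35, limma adjusted p = 0.363). Pomp, the chaperone of the maturing core, read 11250, 11194 and 11043 in young and 6948, 8984 and 10162 in aged muscle, also without overlap (-0.38 ± 0.23, adjusted p = 0.618). The groups did not overlap for 2 of the 5 genes of this list (40%), against 16.2% of all tested probe sets. The assembly chaperones Psmg1, Psmg2 and Psmg3 were at -0.61 ± 0.41, 1.06 ± 0.80 and 0.22 ± 0.40. Of 14 tested proteasome-associated proteins 0 passed, with a median of 0.00075. The lowest p belonged to the deubiquitinase Uchl5 (-0.74 ± 0.31, adjusted p = 0.446), followed by the small lid subunit Sem1 (-0.52 ± 0.26, adjusted p = 0.531). The groups did not overlap for 3 of these 14 genes (21.4%), 2 higher and 1 lower in aged muscle, where 16.2% of all tested probe sets did not.

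Among the immunoproteasome genes, the interferon-induced catalytic subunits, Psmb8 was at 0.79 ± 0.60 and Psmb10 at 0.45 ± 0.75, and neither passed (limma adjusted p = 0.695 and 0.868). Psmb9 was below the filter. Of 14 tested genes of proteasome transcription factors and their activation 0 passed, with a median of 0.03. Nfe2l1 read 5691, 6989 and 6609 in young and 7007, 7106 and 4686 in aged muscle (-0.06 ± 0.27, adjusted p = 0.958), and Nfe2l2, the stress-activated relative, read 5875, 5196 and 5524 in young and 2983, 2849 and 5073 in aged muscle, all aged arrays being lower (-0.66 ± 0.30, adjusted p = 0.503). Among the 14 genes of this list the groups did not overlap for 1 gene lower and 1 gene higher in aged muscle (14.3%, against 16.2% of all). Of 11 genes of the segregase Vcp and its cofactors 0 passed, with a median of -0.11. The membrane protein Derl1 was at 0.48 ± 0.22 (adjusted p = 0.501), all aged arrays being higher. The groups did not overlap for 1 of these 11 genes (9.09%, against 16.2% of all tested probe sets). The E1 enzyme gene Uba6, the only tested gene of the ubiquitin and E1 list, was at -0.18 ± 0.71.

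Of 12 ubiquitin ligases linked to muscle atrophy 1 rose and 11 did not pass, with a median of 0.26. Over all tested probe sets 1.05% passed, 0.311% as higher in aged muscle. Fbxo32, the atrogin-1 ligase, read 5394, 3954 and 1932 in young and 16025, 25906 and 37946 in aged muscle, well apart (2.86 ± 0.39, limma adjusted p = 0.0027). Its change was 2.86 without the trend (adjusted p = 0.224), 2.30 with the RNA quality ratio as a covariate (0.121), and 2.21 with the station as a covariate (0.0726) and in the first station alone (0.0842). The call was thus lost at a change that stayed above 2 on the log2 scale. Trim63, the MuRF1 ligase, read 21378, 15811 and 15808 in young and 15246, 22745 and 28561 in aged muscle, with overlap (0.30 ± 0.26, adjusted p = 0.736). Fbxo31 was at 1.61 ± 0.53 (adjusted p = 0.279), all aged arrays being higher. In this list the groups did not overlap for 3 of 12 genes (25%, against 16.2% of all tested probe sets), 2 higher and 1 lower in aged muscle.

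Markers of the tissue and of other cells moved between the groups beside these values. Of all tested probe sets 0.311% passed as higher and 0.742% as lower in aged muscle, and 10% had an unadjusted limma p under 0.05. The 8 skeletal muscle markers were all bright, 0 passed (6 at an unadjusted p under 0.05), and their summed signal was 1727090 to 1977100 in young and 1259640 to 1357960 in aged muscle (median change -0.70). Of 6 fast fibre markers 0 passed (4 unadjusted, median -0.57). Of 6 slow fibre markers 5 fell (6 unadjusted), with sums of 87549 to 114561 in young and 5489 to 8807 in aged muscle. Of 6 fibroblast markers 3 fell (5 unadjusted, sums 689097 to 923600 and 70622 to 80834). Of 4 tested fat cell markers 2 rose (3 unadjusted, sums 9877 to 15763 and 32383 to 58599). Of 5 macrophage, 3 lymphocyte and 4 endothelial markers 0 passed (0 unadjusted). The sums over all markers with a probe set, 6, 5 and 5 genes, were 59831 to 79307, 3102 to 3603 and 7994 to 9998 in young and 64199 to 101225, 4069 to 5987 and 5957 to 10796 in aged muscle. Of 3 Schwann cell and 3 dividing cell markers 1 each fell (1 and 3 unadjusted), and the 3 blood markers with a probe set were below the filter. The part of these shifts in the proteasome values was not tested.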

How the data were processed

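The authors deposited a linear intensity for each probe set of 3 young and 3 aged arrays, computed with MAS5 according to the submitters' processing notes, whose software version and settings are not given there. Each array had been scaled to a mean of 1500 with 2% trimmed at each end. Low MAS5 signals are noisy once logged. Array medians lay between 637 and 833, and the number of arrays limits the precision.

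Intensities were taken to log2, 64 control probe sets were left out, and 22519 probe sets with a mean log2 signal of at least the median of all, 9.08 (signal 540), were tested. The tool was limma 3.58.1 under R 4.3.3 (lmFit, eBayes with trend, two-sided, Benjamini-Hochberg over all tested probe sets). Intervals are limma's 95% intervals. Steps were tested in 10 simulations with the spread of each tested probe set and 200 changed probe sets. Of 2-fold changes 1.19% passed, of 4-fold changes 17.5% and of 16-fold changes 48.6%, and 3.89% of the calls were false. These shares are over all tested probe sets and not over the proteasome genes alone. A probe set that did not pass can therefore have changed by 2-fold or more. The median standard error was 0.30 for the proteasome genes and 0.56 over all tested probe sets. For 19 of the 38 proteasome genes the 95% interval lay within 1 log2 unit of 0, and for the others it reached past that bound.

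Genes were named from the platform table, which gives 1 symbol for 34958 probe sets, several for 932, and omits 9160. Every proteasome gene may be named; array values are given for those whose groups do not overlap, the 2 smallest p of a subcomplex, the catalytic subunits and the activators, and up to 4 genes of each other list. The members and lists were chosen with earlier results of these data known. Alternatives covered normalization, filter, pseudocount (219), array weights, eBayes options, probe set choice, station, RNA quality and each array left out. Leaving out only probe sets ending _x_at or _s_at was chosen after seeing the data.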

Additional observations from a re-analysis of the deposited data

How the results depend on the processing

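No proteasome gene passed under any alternative other than the station settings, which gave 3 genes as a covariate and 1 in the first station alone. The 38 genes' median stayed negative, between -0.52 (RNA quality covariate) and -0.0095 (without aged replicate 51), and with each array left out ranged from -0.35 to -0.0095. Median centring moved it to -0.33 and the median of all tested probe sets to -0.11. The count of the 38 genes with an unadjusted limma p under 0.05 depended on the setting. The station settings, which rest on 1 aged array, are left out of these counts. Elsewhere it was 2 in the main setting, 12 with the RNA quality covariate and 8 with quantile normalization. Over all tested probe sets the share with such a p was 10% in the main setting and was not counted in the others. With 1 array left out it ranged from 0 (without aged replicate 52) to 12 (without aged replicate 53). The count of probe sets past the test was 138 with the RNA quality covariate, 21 without the trend, 365 in the first station, 136 without sets ending _x_at, _s_at or _a_at, and 124 to 342 with 1 array left out. The alpha ring was at -0.81 with the RNA quality covariate and -0.71 under both station settings, where structural beta genes were at 0.16 (0.165) and chaperones at -2.67. The structural beta median was -0.10 (-0.0987) with probe sets averaged, 0.27 with median centring, 0.54 with quantile normalization, -0.34 without _x_at, _s_at and _a_at sets, 0.14 without _x_at and _s_at sets, and 0.25 to 0.48 with 1 array left out. With 1 array left out the base non-ATPases ranged from -0.31 to 0.13 and the lid from -0.31 to 0.14 (0.145). The atrophy ligases gave 0 calls with the RNA quality covariate, without the trend and under both station settings. Of the 38 proteasome genes 20 changed sign under at least 1 alternative, in 56 of 750 values, and 4 values newly passed, those of the station settings. With the RNA quality covariate Psmb2 was at 0.48, Psmb4 at -0.33, Psmc5 at -0.013, Psmd1 at -0.12, Psmd3 at -0.005 and Psmd14 at -0.30. Under both station settings Psmb2 was at 0.17, Psmb4 at -0.23, Psmd4 at -0.17, Psmd14 at -0.18 and Psme3 at 0.049. With median centring Psmd1 was at -0.052, Psmd4 at -0.10 and Psmd14 at -0.099, and with quantile normalization Psma6 was at 0.098. With probe sets averaged Psmb3 was at -0.11, Psmb4 at -0.097, Psmd7 at 0.27 and Psmc3ip at 0.25. Without _x_at and _s_at sets Psmb4 was at -0.58, Psmc2 at -0.11, Psme4 at -0.0011 and Psmc3ip at 1.24, the same when _a_at sets were also left out, where Psmb3 was at -0.61. With 1 array left out, sign changes lay within -0.29 to 0.091 for Psma6, -0.27 to 0.17 for Psmb2, -0.026 to 0.17 for Psmd1, -0.38 to 0.059 for Psmd2, -0.31 to 0.21 for Psmd4, -0.29 to 0.32 for Psmd7, -0.77 to 0.18 for Psmd8, -0.64 to 0.29 for Psmd13, -0.14 to 0.11 for Psmd14, -1.52 to 0.77 for Psmd10, -2.23 to 0.052 for Psme1, -0.43 to 0.06 for Psme3, -1.24 to 0.26 for Psmc3ip and -0.94 to 0.39 for Psme3ip1. Of the 17 other genes named from the lists, Nfe2l1 was at 0.35 with the RNA quality covariate, 0.13 under both station settings, 0.015 with quantile normalization and -0.16 to 0.14 with 1 array left out. Uba6 was at 0.19 with probe sets averaged and -0.81 to 0.75 with 1 array left out, and Trim63 at -0.08 (-0.0805) with the RNA quality covariate and -0.20 under both station settings. Fbxo32 lost its call at 2.30 with the RNA quality covariate (limma adjusted p = 0.121), 2.86 without the trend (0.224) and 2.21 under both station settings (0.0726 as a covariate, 0.0842 in the first station). Apart from changes that the setting itself makes (fewer arrays or other probe sets), the cause was not tested. No paired analysis was possible because the groups share no replicate numbers. Signals near the filter limit Psmd10, Psme1 and the dim genes.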

Other observations

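The aged arrays spread more than the young ones for most proteasome genes. The median SD of a gene's log2 signal was 0.27 over the 3 young and 0.44 over the 3 aged arrays, and the aged SD was the larger in 31 of 38 genes (81.6%). The share was 57.8% over all tested probe sets and 70.3% over the brightest 20%. Aged replicate 51 was the lowest array in 52.6% of the proteasome genes, against 21.6% of all tested probe sets and 34.9% of the brightest 20%. The 6 genes read from a set ending _x_at or _s_at had a median change of 0.34, and the other 32 had -0.28.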
